A study of Homo sapiens with 9 samples.

Results

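The genes described here were 59 nuclear genes for protein subunits of the mitochondrial respiratory chain, taken by symbol from a gene table of 36343 rows, where each was found once. Of these, 34 encode subunits of complex I, 7 of complex III, 11 of complex IV and 7 of complex V, with NDUFA4 counted in complex IV, where its protein resides. The genes were taken by symbol and not by a cutoff on a measured value, but they were chosen with earlier results of these data known. SKOV-3 cells, an established line of epithelial ovarian cancer cells, were seeded on hydrogel-coated dishes with a stiffness of 0.5, 4 or 25 kPa and were kept there for 3 days. Poly(A) RNA was then sequenced in 3 libraries per gel, which gives 9 libraries in all. As far as is stated, the 3 groups share the cell line and the time and differ in the gel. No drug or genetic change was added, and a single cell line stands for the tumour. The labels give no batch or date, so a difference between gels cannot be told apart from an unrecorded difference of that kind. The libraries are numbered as their labels number them, 1 to 3 on the 0.5 and 4 kPa substrates and 2 to 4 on the 25 kPa substrate. Whether separate cultures stand behind the libraries is not stated in the labels, so the p-values measure only the spread between these libraries, which may be technical.

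The respiratory chain passes electrons from NADH through complex I and complex III to complex IV, where oxygen is reduced, and the protons pumped on the way drive ATP synthesis by complex V. Most of its subunits are encoded in the nucleus, made in the cytosol and imported, while a small core set is encoded by the mitochondrial genome (mtDNA). The nuclear genes are known to be switched on together by the transcription factors NRF1 and GABP, the latter binding the ETS core, and many of them also hold SP1 and YY1 sites near their start.

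A total of 49 of the 59 genes matched the RefSeq promoter table (GRCh38.p14), which gives 250 bases before and 50 bases after each gene's start. On either strand, the NRF1 core GCGCATGCG was present in 6 of them (12.2%, against 1.92% of all 35116 promoters and 2.97% of the 16015 promoters of genes tested below). The ETS core CCGGAAG was present in 12 (24.5%, against 10.3% of all promoters and 15.9% of those of tested genes) and the YY1 core AAGATGGCG in 5 (10.2%, against 1.75% and 3.21%). The SP1 core GGGCGG was present in 32 (65.3%, against 45.0% and 65.0%). The promoters of 3 genes are shown because the genes' means stood on opposite sides in the comparison of softest and stiffest gel. ATP5F1C had the lower mean on the 0.5 kPa substrate, and COX5B and NDUFB4 had the higher mean. None of the 3 was called in the test described below (edgeR adjusted p 0.13, 0.18 and 0.21). For COX5B and NDUFB4 the groups overlapped. Each line gives the 170 bases that end at the base before the gene's start, 5′ to 3′ on the gene's strand, with the matched cores in capitals. The NRF1 core reads on both strands at positions 1 base apart, so that its capitals run over 10 bases. In ATP5F1C it begins 22 bases before the start and in NDUFB4 159 bases before it. COX5B holds the ETS core 37 bases before the start, next to an SP1 core, and again 5 bases before it, where the line ends inside the match. Such cores were thus present in windows of these genes with a lower and with a higher mean. A match is a description of the letters and not of a bound factor.
ATP5F1C (chr10:7788007-7788176, plus strand): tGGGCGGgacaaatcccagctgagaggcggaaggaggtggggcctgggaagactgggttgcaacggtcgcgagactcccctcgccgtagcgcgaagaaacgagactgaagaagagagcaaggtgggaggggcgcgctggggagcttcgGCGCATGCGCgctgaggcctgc
COX5B (chr2:97645892-97646061, plus strand): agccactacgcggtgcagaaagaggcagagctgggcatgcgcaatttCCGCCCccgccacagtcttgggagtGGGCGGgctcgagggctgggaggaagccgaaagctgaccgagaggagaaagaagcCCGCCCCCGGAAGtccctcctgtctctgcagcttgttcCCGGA
NDUFB4 (chr3:120596166-120596335, plus strand): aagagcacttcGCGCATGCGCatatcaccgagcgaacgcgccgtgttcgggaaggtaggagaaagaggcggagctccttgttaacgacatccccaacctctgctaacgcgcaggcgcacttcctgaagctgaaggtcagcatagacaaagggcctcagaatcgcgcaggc

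The total gene count lay between 19609740 and 21033433 per library, and the 59 genes together took 0.513% to 0.634% of it. Of all genes, 16335 had enough counts to be tested, and 58 of the 59 were among them. Markers of SKOV-3 cells were high for ERBB2 (2921 to 4293 counts per 1000000, CPM), KRT8 (452 to 713 CPM) and PAX8 (184 to 231 CPM), while MUC16 did not exceed 0.958 CPM and WT1 did not exceed 1.30 CPM. Leukocyte and endothelial markers did not exceed 2.03 CPM, and of 4 fibroblast markers COL1A1 was at 32.6 to 43.1 CPM, PDGFRB at 0.963 to 4.02 CPM, COL3A1 at 0.152 to 1.87 CPM and DCN at 0 to 0.147 CPM. As the samples are bulk RNA, fewer cells of a kind and less RNA per cell cannot be told apart.

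The gene table and the transcript table differed strongly for some of the genes. The deposited transcript table holds estimated counts, whose total was 3.57 times the gene table's total, so that the median ratio of gene count to summed transcript estimate was 0.285 for the 59 genes and 0.294 for all tested genes. For 8 of the 59 (13.6%) the ratio was under 0.1, as it was for 2.25% of the tested genes. These were NDUFV2, NDUFA13, NDUFB8, NDUFA11, NDUFA9, NDUFC2, ATP5PO and COX6A1. All 8 share between 9.65% and 33.8% of their exonic bases with another gene on the same strand in GENCODE 29 (hg38, the build of the files). Same-strand overlap of 5% or more was present in 12 of the 59, and none of the other 47 had a ratio below 0.179. Whether the overlap set the counts was not tested. The clearest case was NDUFV2, a flavoprotein-arm subunit of complex I that carries an iron-sulfur cluster, on chromosome 18 at 9102630 to 9134345. It had 7 to 27 gene counts in each library but 4537 to 6086 estimated transcript counts. UQCRH, the hinge subunit of complex III, had 2 to 9 gene counts and 3 to 12 estimated transcript counts and was the single gene of the 59 left out of the test. Values of these 9 genes are uncertain. Other genes share exonic bases with genes on the opposite strand, among them NDUFS7 (49.1%), NDUFB11 (44.9%), NDUFA1 (44.5%), NDUFB2 (35.1%) and ATP5F1E (23.2%). The strand setting of the counts is not stated, so antisense reads cannot be told apart there.

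The softest gel was first compared with the stiffest. Levels of most subunit genes on the 0.5 and 25 kPa substrates were close. ATP5F1B, which encodes the catalytic beta subunit of ATP synthase, was lower on the 0.5 kPa substrate and was the single gene of the 58 tested that passed the threshold, an adjusted p under 0.05 in edgeR's quasi-likelihood test over all 16335 genes. No subunit gene was higher past the threshold. Complex IV genes tended to the higher side and complex V genes to the lower side, with medians of 0.17 and −0.20 on the log2 scale.

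ATP5F1B (chromosome 12, 56638175 to 56646068, minus strand) had the highest level per length among the 59, at 399.6 ± 37.1 FPKM (SD, n = 9 libraries). Its counts were 872, 842 and 753 CPM on the 0.5 kPa substrate, 922, 947 and 945 CPM on the 4 kPa substrate, and 1078, 994 and 1023 CPM on the 25 kPa substrate. The 3 groups did not overlap and stood in the order of stiffness. The log2 fold change for 0.5 against 25 kPa was −0.33 (SE 0.076, edgeR adjusted p = 0.022), and for 0.5 against 4 kPa it was −0.19 (SE 0.076, edgeR adjusted p = 0.28). The first call was lost when replicate 2 or 3 of the 0.5 kPa substrate was left out, or any single 25 kPa library, where the edgeR adjusted p lay between 0.051 and 0.094 and the fold change between −0.35 and −0.26.

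Across all genes, 3.06% were called higher and 3.62% lower on 0.5 than on 25 kPa, and the subunit genes, with 0 higher and 1 lower of 58, did not exceed these shares. At an unadjusted p under 0.05 in edgeR, 5 of the 58 were higher and 6 lower, beside 11.1% and 11.8% of all genes. DESeq2 and limma on FPKM also called 0 of them higher. The median log2 fold change was 0.02, and 31 of the 58 were above 0, beside 8167 of the 16335 tested genes. The medians over all tested genes lay between −0.01 and 0.01 in the 3 comparisons.

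**Figure D1:**
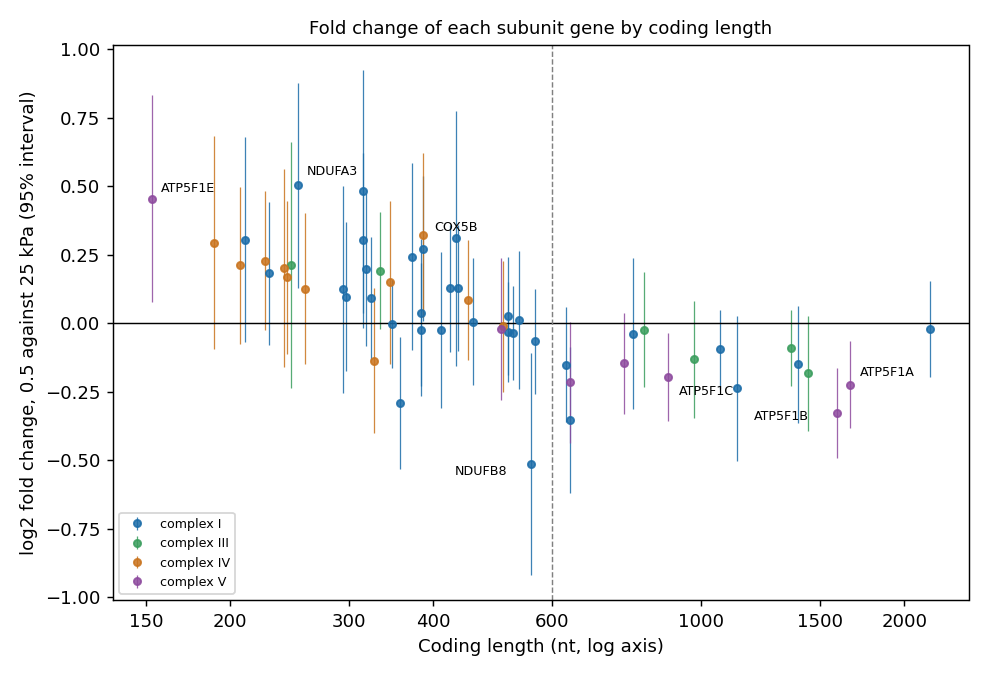
The log2 fold change for 0.5 against 25 kPa (y axis, bars are 95% intervals of edgeR's fit) of 57 subunit genes, without NDUFV2, against coding length in nucleotides (x axis, log scale), coloured by complex. Points left of the dashed line at 600 nt lie mostly above 0, and all 16 to its right lie below 0.

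In complex V, 6 of 7 genes had a log2 fold change below 0 for 0.5 against 25 kPa, and ATP5F1E was the exception. ATP5F1A, which encodes the alpha subunit, was at 590, 564 and 532 CPM on 0.5 kPa, 591, 598 and 582 CPM on 4 kPa, and 683, 610 and 677 CPM on 25 kPa. Its softest and stiffest groups did not overlap, with a log2 fold change of −0.22 (SE 0.073, edgeR adjusted p = 0.085). ATP5F1C, the gamma subunit that rotates inside the head, was at 249, 246 and 221 CPM on 0.5 kPa and at 291, 257 and 274 CPM on 25 kPa. Here too the softest group lay below the stiffest, at a log2 fold change of −0.20 (SE 0.075, edgeR adjusted p = 0.13). ATP5F1E, which encodes the epsilon subunit and had the lowest level per length of the 7 (8.75 ± 1.97 FPKM, SD, n = 9 libraries), was at 60.6, 61.8 and 36.7 CPM on 0.5 kPa, 39.8, 44.8 and 44.3 CPM on 4 kPa, and 43.8, 38.1 and 34.2 CPM on 25 kPa. Its 0.5 kPa libraries were split, with replicates 1 and 2 above every other library and replicate 3 within the range of the 25 kPa libraries. The log2 fold change was 0.45 (SE 0.17, edgeR adjusted p = 0.14). The rank of ATP5F1E per length rests on the length that the FPKM imply, 5127 nt, beside a coding length of 153 nt. By CPM, ATP5PO was lower, with gel means of 28.9 to 38.1 CPM against 38.7 to 53.0 CPM for ATP5F1E. Summed over the 7 genes, complex V had mean levels (± SD, n = 3 each) of 2005 ± 148 CPM on the 0.5 kPa, 2116 ± 40.1 CPM on the 4 kPa and 2356 ± 137 CPM on the 25 kPa substrate. ATP5F1B and ATP5F1A make up most of that sum.

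In complex IV, 9 of 11 genes had a log2 fold change above 0 and none passed the threshold. COX5B, an accessory subunit that binds zinc, had the largest, with 126, 119 and 87.8 CPM on 0.5 kPa, 86.1, 90.0 and 102 CPM on 4 kPa, and 105, 79.3 and 81.4 CPM on 25 kPa. The same 2 libraries of the softest gel as for ATP5F1E were above all others, and the log2 fold change of 0.32 (SE 0.14) had an edgeR adjusted p of 0.18. COX6A1, an accessory subunit and among the low-ratio genes above, had the lowest at −0.14 (SE 0.12), with 46.9 to 56.2 CPM on 0.5 kPa and 48.9 to 66.3 CPM on 25 kPa. Per length, levels in complex IV ran from 19.6 ± 2.64 FPKM for NDUFA4 to 115.9 ± 17.3 FPKM for COX8A, which encodes a small membrane subunit (SD, n = 9 libraries).

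In complex III, the log2 fold changes of the 6 tested genes lay between −0.18 for UQCRC1 and 0.21 for UQCRQ. UQCRC1, a core protein facing the matrix and the complex III gene with the highest level per length (61.5 ± 5.55 FPKM, SD, n = 9 libraries), had 160 to 204 CPM on 0.5 kPa and 187 to 230 CPM on 25 kPa. UQCRQ, a small accessory subunit, was at 106, 98.1 and 59.9 CPM on 0.5 kPa against 92.3, 69.8 and 65.7 CPM on 25 kPa. Groups overlapped for both genes, and the intervals reach from −0.39 to 0.03 for UQCRC1 and from −0.24 to 0.66 for UQCRQ.

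In complex I, the median log2 fold change of 34 genes was 0.02, with 19 above 0. NDUFS5, an intermembrane-space accessory subunit, had the highest level per length (218 ± 30.4 FPKM, SD, n = 9 libraries) and a log2 fold change of 0.20 (SE 0.13). The low extreme was NDUFB8, a membrane-arm subunit that is among the low-ratio genes, with 52 to 94 gene counts per library and a log2 fold change of −0.51 (SE 0.19, edgeR adjusted p = 0.12). From summed transcript estimates, 2353 to 3100 per library, its fold change was −0.07. The high extreme was NDUFV2 at 0.72 (SE 0.42), which rests on the few counts given above. The other complex I genes with an unadjusted p under 0.05 were chosen after their values were seen. Of these, NDUFA3, NDUFB1 and NDUFB4, all accessory subunits of the membrane arm, had log2 fold changes of 0.50, 0.48 and 0.27. NDUFS7, which carries the last iron-sulfur cluster before ubiquinone, and NDUFC2, a membrane-arm subunit, had −0.35 and −0.29. Their edgeR adjusted p lay between 0.10 and 0.21.

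Genes with a short and a long coding sequence lay on different sides in this comparison. Taking the coding length of the principal transcript in GENCODE 29 and a border of 600 nt chosen after values were seen, 30 of 41 shorter genes had a log2 fold change above 0 for 0.5 against 25 kPa, with a median of 0.13. Of the 17 longer ones 16 were below 0, with a median of −0.15, and the exception was the low-ratio gene NDUFV2. Over all tested genes, the 1671 shorter and the 11711 longer had medians of −0.02 and −0.01. The classes were also counted within the complexes. In complex I, 18 of 26 shorter genes were above 0 and 7 of 8 longer ones below 0. In complex III, UQCRB and UQCRQ, the 2 shorter genes, were above 0 and the 4 longer ones below 0. In complex V, the shorter genes ATP5F1E and ATP5F1D were at 0.45 and −0.02, and all 5 longer ones were below 0. Complex IV holds shorter genes alone.

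The intermediate gel was compared with each of the others in the same fit. On the 0.5 kPa substrate most subunit genes stood slightly above 4 kPa, with a median log2 fold change of 0.09 and 48 of 58 genes above 0. Of all tested genes 8444 of 16335 were above 0, and of those with a coding length up to 600 nt 1035 of 1671. With single libraries left out, the median of the 58 lay between 0.01 (without 0.5 kPa replicate 1) and 0.19 (without 0.5 kPa replicate 3). NDUFA5, an accessory subunit of the complex I arm that faces the matrix, was called in both comparisons, with its level on 4 kPa below the levels on either other gel. These calls share the 4 kPa libraries and are not independent of each other.

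NDUFA5 (chromosome 7, 123536997 to 123558255, minus strand) was at 33.6, 36.3 and 37.8 CPM on 0.5 kPa, 28.5, 27.7 and 27.7 CPM on 4 kPa, and 35.5, 34.9 and 37.4 CPM on 25 kPa. The 4 kPa libraries lay below the other 6, which overlapped each other. The log2 fold change was 0.36 for 0.5 against 4 kPa (SE 0.076, edgeR adjusted p = 0.024) and −0.36 for 4 against 25 kPa (SE 0.076, edgeR adjusted p = 0.044). The first call was lost when replicate 2 or 3 of the 0.5 kPa substrate, replicate 1 or 2 of the 4 kPa substrate or 25 kPa replicate 4 was left out (edgeR adjusted p 0.050 to 0.12). It was also lost under several settings described below, among them a coding length offset. The second was kept only without 0.5 kPa replicate 3 or 4 kPa replicate 3, and was otherwise between 0.065 and 0.24 in edgeR's adjusted p.

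Against 4 kPa, 1 of the 58 subunit genes was higher and 0 were lower on 0.5 kPa, beside 0.924% and 1.13% of all genes. At an unadjusted p under 0.05 in edgeR the numbers were 3 and 1, beside 7.13% and 6.57% of all genes, and DESeq2 and limma also called 0 lower. The 3 higher were NDUFA5, UQCRB and NDUFA11, and the lower gene was ATP5F1B. UQCRB, an accessory subunit known as the ubiquinone-binding protein of complex III, was at 96.5, 99.4 and 77.9 CPM on 0.5 kPa and 68.1, 70.6 and 76.6 CPM on 4 kPa. The groups did not overlap, with replicate 3 of 0.5 kPa close to the 4 kPa libraries and a log2 fold change of 0.35 (SE 0.099, edgeR adjusted p = 0.10).

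Between 4 and 25 kPa, 0 of the 58 were higher and 1 was lower on 4 kPa, beside 0.435% and 0.465% of all genes. At an unadjusted p under 0.05 in edgeR the numbers were 1 and 7, beside 6.77% and 8.06% of all genes, and the median log2 fold change was −0.07. DESeq2 and limma called 0 higher. Complex V genes took 3 of the 7, with log2 fold changes of −0.40 for ATP5PO, −0.22 for ATP5F1C and −0.23 for ATP5PB (edgeR adjusted p 0.086, 0.17 and 0.22). ATP5PO and ATP5PB encode parts of the peripheral stalk that holds the head still. ATP5PO, one of the low-ratio genes, was at 28.5, 28.0 and 30.2 CPM on 4 kPa and 44.5, 32.5 and 37.4 CPM on 25 kPa, groups that did not overlap. The higher gene was NDUFV2.

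**Figure D2:**
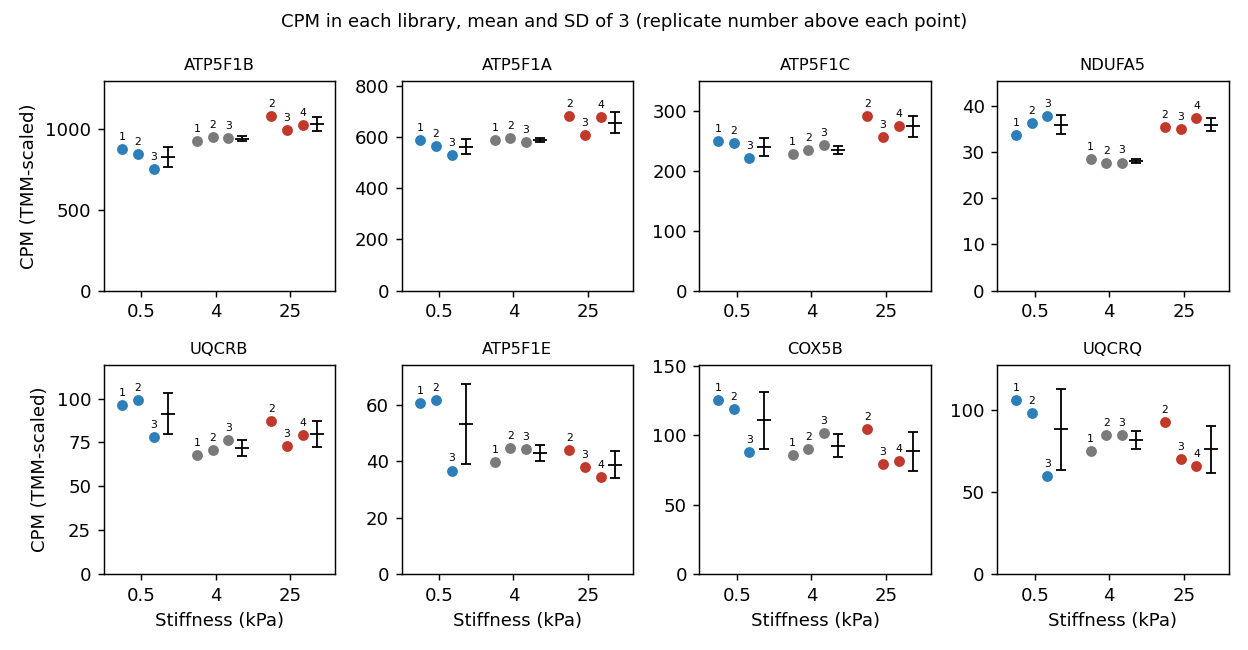
CPM (y axis, TMM-scaled, from 0) in each library on 0.5, 4 and 25 kPa (x axis) for 8 subunit genes, with replicate numbers above the points and the mean ± SD of 3 libraries at the right of each group. ATP5F1B rose from 753 to 872 CPM on the softest gel to 994 to 1078 CPM on the stiffest, NDUFA5 was lowest on 4 kPa, and for ATP5F1E and UQCRQ replicate 3 of the softest gel stood far below replicates 1 and 2.

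For 54 of the 59 subunit genes the widest range of log2 CPM among the libraries of a gel exceeded the range of the gel means, and ATP5F1A, ATP5F1B, ATP5F1C, NDUFA5 and UQCRH were the other 5. The same count over all genes was not made, so it cannot be read as a trait of the subunit genes. In each gene, the log2 CPM of a library was set against the mean of that gene over the 9 libraries. The median of these deviations over the 58 genes was 0.20 and 0.12 in 0.5 kPa replicates 1 and 2 but −0.19 in replicate 3. It was −0.13, −0.04 and 0.03 in the 4 kPa libraries and 0.15, −0.11 and −0.01 in the 25 kPa libraries.

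Replicate 3 was the lowest of the softest gel for 51 of the 58 genes and replicate 1 the highest for 48. On 25 kPa, replicate 2 was the highest for 55 and replicate 3 the lowest for 42. On 4 kPa, replicate 1 was the lowest for 43 and replicate 3 the highest for 37. The median SD between the libraries of a gel was 0.21 for the subunit genes on 0.5 kPa, against 0.13 for all tested genes. It was 0.16 against 0.12 on 25 kPa and 0.09 against 0.15 on 4 kPa, where the subunit genes varied less.

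**Figure D3:**
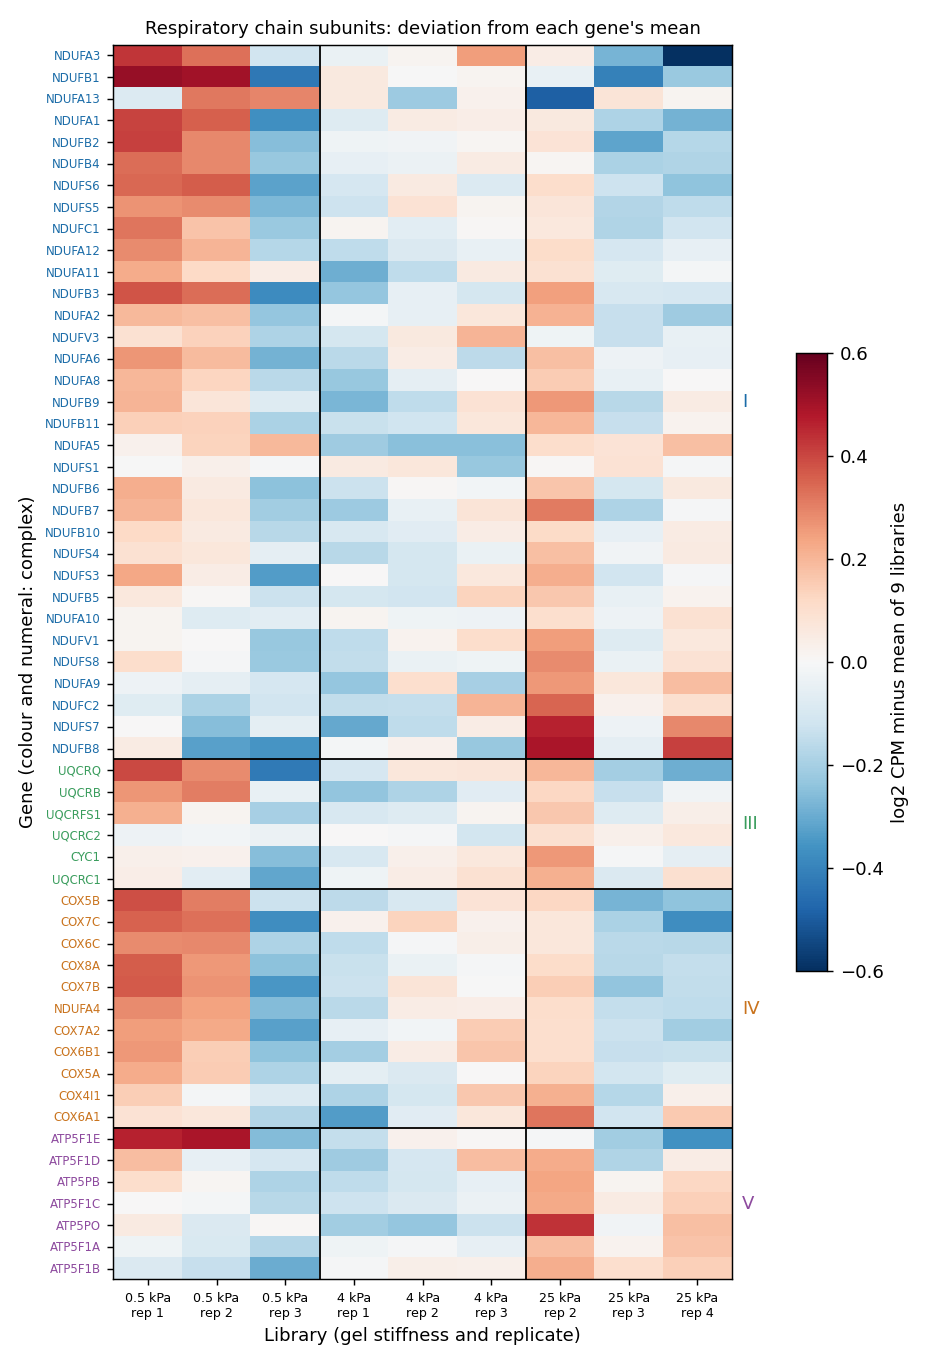
Heat map of log2 CPM minus each gene's mean over 9 libraries for 57 subunit genes (rows, by complex and then by fold change, without NDUFV2 and UQCRH) in the 9 libraries (columns, by gel). Most rows are red in 0.5 kPa replicates 1 and 2 (medians 0.20 and 0.13) and blue in replicate 3 (−0.19), and the lowest rows of complexes I and V are red on 25 kPa.

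Replicate 3 of the softest gel was low in every complex, with complex medians between −0.24 and −0.18, and 0 of 11 complex IV genes and 0 of 6 tested complex III genes were above their own mean there. Replicates 1 and 2 differed by complex. Their medians were 0.28 and 0.24 in complex IV, 0.20 and 0.12 in complex I, 0.13 and 0.02 in complex III, and 0.05 and −0.05 in complex V, where replicate 2 fell on the low side. Summed over the 59 genes, the softest gel had 6268, 5986 and 5060 CPM, 4 kPa had 5454, 5714 and 5890 CPM, and 25 kPa had 6571, 5614 and 5935 CPM, so the groups overlapped. The transcript estimates, made from the same reads, gave medians of 0.21, 0.14 and −0.19 in the softest gel's libraries.

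Short genes as a class deviated in the same direction in all 9 libraries except 25 kPa replicate 4, and less than the short subunit genes did on the softest gel. The 41 subunit genes of up to 600 nt had medians of 0.26, 0.19 and −0.21 there, and all 1671 tested genes of that length had 0.07, 0.03 and −0.09. The part of gene length in the split was not tested further.

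**Figure D4:**
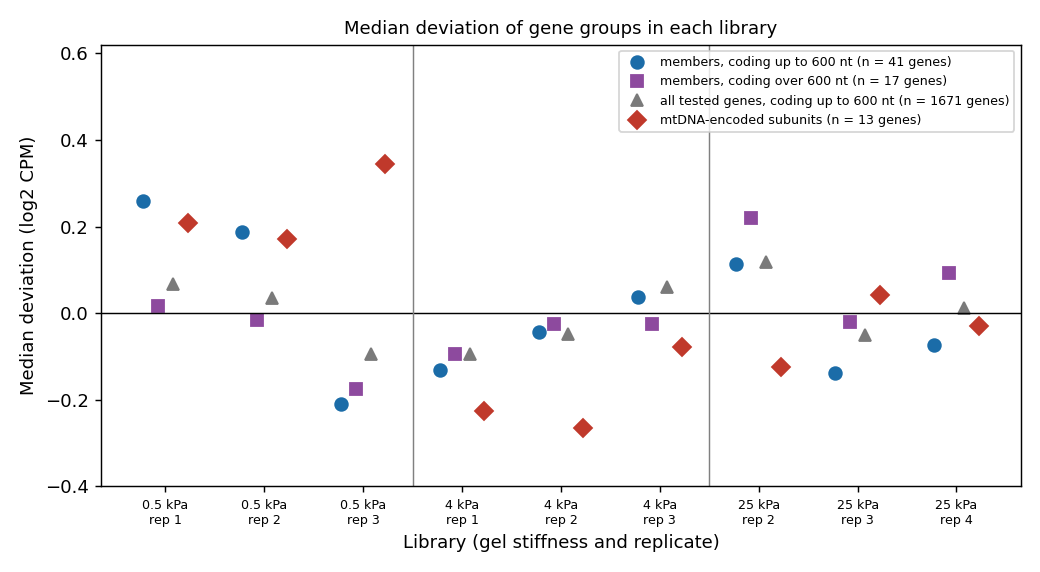
Median deviation of log2 CPM from each gene's mean (y axis) in the 9 libraries (x axis) for short and long subunit genes, all tested short genes and the 13 mtDNA-encoded subunits. In 0.5 kPa replicate 3 the short subunit genes lie at −0.21 and the mtDNA-encoded ones at 0.34.

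Leaving out 0.5 kPa replicate 3, a library singled out after its values were seen, changed the calls. For 0.5 against 25 kPa, 12 of the 58 were then higher and 0 lower, beside 2.38% and 2.14% of all genes, with an edgeR adjusted p between 0.0025 and 0.043. They were the complex I accessory genes NDUFA1, NDUFA3, NDUFB1, NDUFB2, NDUFB4, NDUFS5 and NDUFS6, the complex IV genes COX5B, COX6C, COX7C and COX8A, and ATP5F1E. NDUFB1 and ATP5F1E had the largest log2 fold changes, 0.74 (SE 0.12) and 0.67 (SE 0.10). ATP5F1B stayed lower at −0.26 without passing the threshold. For 0.5 against 4 kPa, 3 were higher and 0 lower, NDUFB3, UQCRB and ATP5F1E, beside 0.795% and 0.976% of all genes.

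Leaving out 4 kPa replicate 3 instead, with 11.8% of all genes called for 0.5 against 25 kPa, gave 0 higher and 4 lower, namely ATP5F1A, ATP5F1B, NDUFC2 and NDUFS7. Leaving out 25 kPa replicate 2, the library in which most subunit genes were high, gave a median log2 fold change of 0.11. There were then 0 calls in either direction, beside 3.26% of all genes called. The labels give no batch or date for these libraries, so that values within a batch could not be computed.

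The remaining genes of the pathway were read from the same fit. Of the 18 other nuclear subunits of complexes I, III, IV and V and cytochrome c, 0 were called by edgeR in any comparison. At an unadjusted p under 0.05 in edgeR, 3 were higher on 0.5 than on 25 kPa, beside 11.1% of all genes. Against 4 kPa 2 were higher (7.13%), and between 4 and 25 kPa 1 was lower (8.06%). Library medians of the 18 on the softest gel were 0.22, 0.15 and −0.24, close to those of the 58. Of the 4 complex II genes, 0 were called by edgeR. At an unadjusted p under 0.05 in edgeR, 1 was lower on 0.5 than on 25 kPa, beside 11.8% of all genes. For 0.5 against 4 kPa there were 0, and 2 were lower on 4 than on 25 kPa (8.06%).

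Some of the 13 subunits encoded by mtDNA passed the threshold on the softest gel. On 0.5 kPa, 6 of 13 were higher than on 25 kPa, beside 3.06% of all genes. Against 4 kPa 10 of 13 were higher, beside 0.924%. Median log2 fold changes of the 13 were 0.30 and 0.49. Between 4 and 25 kPa 0 passed in edgeR. At an unadjusted p under 0.05 in edgeR, 2 were higher and 5 lower on 4 kPa, beside 6.77% and 8.06% of all genes. MT-ND4L, a membrane subunit of complex I, was at 637, 693 and 570 CPM on 0.5 kPa, 422, 447 and 360 CPM on 4 kPa, and 342, 444 and 334 CPM on 25 kPa. Its log2 fold change was 0.76 for 0.5 against 25 kPa and 0.63 for 0.5 against 4 kPa (edgeR adjusted p 0.0020 and 0.012). MT-ATP8 and MT-ND3 had 0.85 and 0.61 for 0.5 against 25 kPa (edgeR adjusted p 0.0045 and 0.019). With single libraries left out, 2 to 9 were higher than on 25 kPa and 3 to 11 higher than on 4 kPa. Of all genes, 2.20% to 11.8% and 0.811% to 3.51% were then called in either direction. From transcript estimates edgeR called 0 of the 13. With the replicate block described below, 0 of the 13 were higher on 0.5 than on 25 kPa. MT-ND4L and MT-ATP8 overlap neighbouring mtDNA genes, and their counts are uncertain. In 0.5 kPa replicate 3, where the nuclear genes were low, the median deviation of the mtDNA list was 0.34, beside 0.21 and 0.17 in replicates 1 and 2. All mtDNA genes together took 5.21% to 5.74% of counts on 0.5 kPa and 3.99% to 4.60% in the other 6 libraries.

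Of 48 tested assembly factors, 1 was called, lower on 0.5 than on 25 kPa, beside 3.62% of all genes. This was NDUFAF4, which helps to build complex I. It was at 28.5 to 29.2 CPM on 0.5 kPa and 36.0 to 36.9 CPM on 25 kPa, groups that did not overlap, with a log2 fold change of −0.33 (SE 0.092, edgeR adjusted p = 0.048). The call was lost under many settings, among them upper-quartile scaling (edgeR adjusted p = 0.081) and every single 0.5 or 25 kPa library left out. Among 11 tested regulators, 1 was called, lower on 0.5 than on 4 kPa, beside 1.13% of all genes. The gene was MYC, a transcription factor that also drives genes of mitochondrial growth. It was at 66.9, 66.4 and 92.1 CPM on 0.5 kPa and 113, 111 and 146 CPM on 4 kPa, with a log2 fold change of −0.72 (SE 0.14, edgeR adjusted p = 0.019), and it was not called without 0.5 kPa replicate 1 or 2. Of 12 genes that copy or transcribe mtDNA and 3 tested tissue isoforms of subunits, 0 were called by edgeR, with up to 2 and 1 at an unadjusted p under 0.05 in any comparison. Of all genes, 6.57% to 11.8% had such a p per direction and comparison.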

How the data were processed

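RNA of SKOV-3 cells was sequenced in 3 libraries per gel. Per the labels, reads were aligned with HISAT2 2.1.0 to hg38; for the counter, annotation and strand setting, the sources used here give nothing, so that a gene and its antisense partner cannot be told apart, and the labels and the study's methods name different library kits. The authors deposited gene counts (not normalized), FPKM, and estimated counts per transcript, which served here as a check. A further 3 columns matched no labelled sample and were not used. The authors' counts were tested with edgeR 4.0.16 (R 4.3.3): filterByExpr, TMM scaling, robust quasi-likelihood fit over all 9 libraries, Benjamini-Hochberg adjustment over all tested genes, called at adjusted p under 0.05. CPM are counts per 1000000 of TMM-scaled totals, and deviations are log2 CPM with a prior count of 2. Levels per length are the deposited FPKM. Their ranks rest on the length these imply, for example 10911 nt for ATP5F1A, where 1659 nt are coding. DESeq2 1.42.0 and limma 3.58.1 on log2(FPKM + 1) or log2(FPKM + 0.1) were alternatives, with other filters and scalings, a replicate block and each library left out. Python 3.11.15 drew the plots. Genes were named by rule: called genes, the highest and lowest fold and level per complex, and called genes of each list. ATP5F1A, ATP5F1C, ATP5PO, ATP5PB, UQCRB, NDUFB4, NDUFA11, the other genes with an unadjusted p under 0.05 and the low-ratio genes were chosen after their values were seen. The members and lists were chosen with earlier results of these data known. The fit was also run on simulated counts with the same spread for all genes and no shift shared by genes within a library. That run therefore does not bear on how firm the calls above are.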

Additional observations from a re-analysis of the deposited data

Results flagged for a closer look

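A signal stood in data that the comparisons above do not use, the estimated transcript counts. Summed over the transcripts of NDUFV2, they lay between 4537 and 6086 per library, while the gene table, on which the tests rest, gave NDUFV2 between 7 and 27 counts. In GENCODE 29, a single other gene, AP005263.1 on the same strand, shares exonic bases with NDUFV2 (28.4% of them), and its counts were not analysed here. Which table holds the level of NDUFV2 was not tested.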

How the results depend on the processing

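For 0.5 against 25 kPa, the number of higher subunit genes was 0 under every alternative but 3: it was 5 without a count filter and 3 with a coding length offset, and it lay between 0 and 12 when single libraries were dropped. The lower genes numbered 2 with DESeq2 and 2 without a count filter, 0 with limma on unfiltered FPKM, 0 with a 2-fold limit and 0 from transcript estimates, and between 0 and 4 with single libraries left out. Of all genes, the share called in either direction was 4.64% without a count filter, 9.26% with the offset and 3.68% with DESeq2. It was 0.764% with limma on unfiltered FPKM, 1.17% with a 2-fold limit and 0.481% from transcript estimates. With single libraries left out it was 2.20% to 11.8%. For 0.5 against 4 kPa, the number of higher genes was 2 without a count filter, 0 with limma in all 3 forms, 0 with the 6 compared libraries alone, 0 with a 2-fold limit, 0 from transcript estimates, and between 0 and 3 with single libraries left out. With the coding length offset, which called 3.42% of all genes, the number stayed at 1, but the gene was UQCRB and not NDUFA5. Of all genes, 1.96% were called without a count filter, 1.19% with the 6 compared libraries alone and 0.343% with a 2-fold limit. The share was 0.383% to 2.21% with limma, 0.169% from transcript estimates and 0.811% to 3.51% with single libraries left out. For 4 against 25 kPa, the number of lower genes was 2 with DESeq2 and 3 without a count filter, 0 with upper-quartile scaling, limma in all 3 forms, the 6 compared libraries alone, a 2-fold limit, transcript estimates and the coding length offset, and between 0 and 1 with single libraries left out. The transcript estimates and the offset were chosen after seeing the data, and the cause of these shifts was not tested.

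A replicate block gave 0 subunit genes in either direction in all 3 comparisons, and 0 of 13 mtDNA-encoded genes higher on 0.5 than on 25 kPa. Of all genes, the block called 1.32% for 0.5 against 25, 0.894% for 0.5 against 4 and 0.0979% for 4 against 25 kPa. The numbers share no stated origin. With each gel's mean subtracted, correlations of same-numbered libraries over all genes lay between −0.23 and 0.14. Those of differently numbered libraries lay between −0.23 and 0.23. Between 0.5 and 4 kPa, numbers 2 and 3 each correlated at 0.14 with their own number. Whether same-numbered libraries share an origin cannot be told from these values. With 2 or 3 numbers per pair, some libraries correlated better with another number than with their own.

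The 13 mtDNA-encoded genes gave 1 higher on 0.5 than on 25 kPa with limma on unfiltered FPKM, 0 with a 2-fold limit, 0 from transcript estimates, 10 with the coding length offset, and 2 to 9 with single libraries left out. Against 4 kPa the number was 5 with limma on filtered FPKM, 0 with unfiltered FPKM, 5 with the 6 compared libraries alone, 0 with a 2-fold limit, 0 from transcript estimates, and 3 to 11 with single libraries left out.

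Under the alternatives, the median log2 fold change of the subunit genes for 0.5 against 25 kPa lay between −0.03 and 0.13. For 0.5 against 4 kPa it lay between 0.01 and 0.19. In both, the lowest came without 0.5 kPa replicate 1 and the highest without 0.5 kPa replicate 3. Between 4 and 25 kPa the median ran from −0.10 to −0.003. The summed level of the subunit genes was computed only as TMM-scaled CPM, unscaled CPM, CPM without mtDNA genes in the totals, and FPKM. Its ratio of 0.5 to 25 kPa lay between 0.956 and 1.03 in these units. With 3 libraries per gel, the median 95% interval of a single subunit gene reached 0.26 to either side on the log2 scale in each comparison. Smaller differences were mostly not detectable. The interval is not adjusted for the number of genes tested, so larger differences could be missed too. For 0.5 against 25 kPa, NDUFA3 at 0.50 and NDUFB8 at −0.51 did not pass the threshold.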
